A study of Mus musculus with 2 samples.

Results

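The 10 genes described here carry and restrain the interleukin-6 (IL-6) signal in Th17 cells, the IL-17-secreting helper T cells. They were chosen by name from a table of 16385 genes: the receptor chains Il6ra and Il6st, the kinases Jak1, Jak2 and Tyk2, the transcription factor Stat3, and the feedback and response genes Socs1, Socs3, Cish and Pim1. All 10 were found, each as 1 row. RNA came from mouse (C57BL/6) CD4+ T cells that lacked Malat1, a nuclear long non-coding RNA. Naive cells had been cultured for 72 h with IL-6 (20 ng/mL), TGF-β (0.1 ng/mL), anti-CD3ε (0.25 µg/mL) and anti-CD28 (1 µg/mL). There was 1 group of 2 libraries, which the series' design text calls independent biological replicates, and the title of each names a Malat1 knockout, while another label of replicate 2 names Malat2. The wild-type Th17 cells in the authors' comparison belong to another series, so genotype and series cannot be told apart. The study asked which transcripts differ in Th17 cells without Malat1. Malat1 itself is not analysed here.

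IL-6 binds the receptor chain encoded by Il6ra, and the pair engages gp130, the signalling chain encoded by Il6st and shared by most cytokines of the IL-6 family. Kinases of the JAK family held on gp130 then phosphorylate STAT3, which enters the nucleus, binds palindromic DNA sites and induces its target genes. In naive CD4+ T cells this signal, together with TGF-β, starts the Th17 programme. SOCS3, itself a STAT3 target, docks on gp130 and shuts the JAKs off, so the pathway limits itself.

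The palindrome bound by STAT proteins, TTCNNNGAA, which reads the same on both strands, occurred in the promoter window of 2 of the 10 genes, Socs3 and Cish. RefSeq windows (GRCm38) from 250 bases before to 50 bases after an annotated start were found for all 10 genes, 11 windows in all. Across 32851 windows of 300 bases, 8.30% held a match. The stretches with a match are shown because both genes are feedback genes of cytokine signalling, and the palindromes stand in capitals.
Socs3: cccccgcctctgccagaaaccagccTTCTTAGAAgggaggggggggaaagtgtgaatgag
Cish: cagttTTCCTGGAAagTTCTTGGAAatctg
The Socs3 stretch lies on chr11:117969486-117969545 (GRCm38, minus strand), and its palindrome, TTCTTAGAA, spans bases -154 to -146 from the RefSeq start. The Cish stretch lies on chr9:107296654-107296683 (GRCm38, plus strand). Its palindromes TTCCTGGAA and TTCTTGGAA cover bases 1 to 9 and 12 to 20, counted from 1 at the RefSeq start, and thus sit in tandem. Both stretches lie inside the GENCODE gene spans of Socs3 and Cish given below, which begin upstream of these RefSeq starts. No match was found in the windows of Il6ra, Il6st, Jak1, Jak2, Tyk2, Stat3, Socs1 or Pim1. A match describes the letters of the window and is not a measured binding site.

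The knockout libraries held 21554852 and 26916169 counts in genes. The 10 markers of CD4 T and Th17 cells summed to normalized counts of 135016 and 132631. Defining markers of B, myeloid, dendritic, NK and erythroid cells were at or near 0: B cell markers summed to at most 8.71, the 3 measured dendritic cell markers to at most 11.4, erythroid and platelet markers to at most 8.35 and hepatocyte markers to at most 0.967, and Ncr1, Klrb1c, S100a9, Alas2 and Ppbp had 0 counts in both libraries. Of the other marker lists, CD8 T cells rested on Cd8b1 (280 ± 8.21, SD, n = 2, with Cd8a at 4.42), NK and gamma-delta T cells on Klrc1 (913 ± 55.3) and myeloid cells on Cd14 (57.7 ± 6.39). The 8 kidney tubule markers summed to 48.4 and 44.8 in the knockout and the 8 fibroblast and smooth muscle markers to 111 and 92.6, with Lrp2, Miox, Umod and Col1a2 at 0 counts. In the wild-type mean implied by the authors' table these same 8 and 8 markers summed to 31992 and 15214. Most were thus present in that mean and nearly missing from the knockout: 7 of the kidney and 6 of the fibroblast and smooth muscle markers stood under 2% of it. The others were Cubn (22.8 against an implied 265), Pdgfra (2.11 against 27.1) and Dcn, which was level (55.2 against 55.9). This mean cannot show whether every wild-type library held these transcripts. Their part in the fold changes below was not tested.

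No gene of the IL-6 axis passed the authors' test of knockout against wild type, which does not show that the levels were equal. In the authors' deposited table, 0 of the 10 genes had an adjusted p under 0.05 (their DESeq2 Wald test), against 0.159% of the 14481 genes with an adjusted p, and all 10 had an adjusted p of 0.999988. At an unadjusted p under 0.05, Stat3 alone was higher and 0 were lower. Over all 16385 genes that share was 0.391% higher and 1.72% lower, and over the 7070 genes with a mean normalized count of 500 or more, a level all 10 genes reach, it was 0.905% higher and 1.3% lower. Fold changes on the log2 scale, knockout over wild type, were positive for 7 of the 10 genes and ran from -0.25 to 0.30, with a median of 0.064. Among those 7070 well-expressed genes the median was 0.0083 and 52.8% were positive. In bulk RNA, fewer cells of a type and less RNA per cell cannot be told apart.

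**Figure D1:**
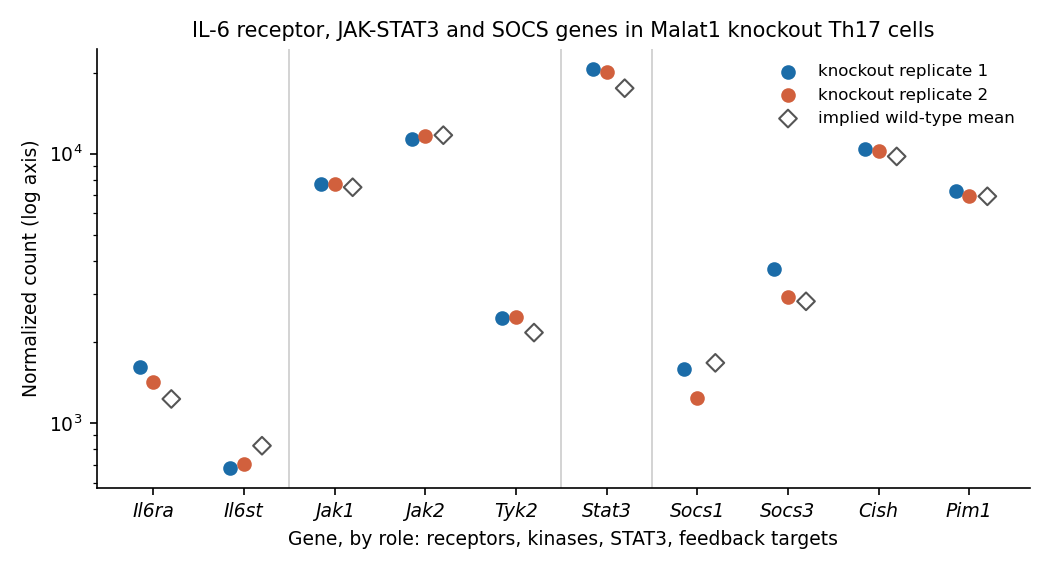
Normalized count (log axis) of each gene in knockout replicate 1, knockout replicate 2 and, as an open diamond, the implied wild-type mean, which has no replicate values. The knockout points lie on top of each other for most genes, while for Socs1, Socs3 and Il6ra replicate 1 stands above replicate 2.

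The receptor chains had the lowest levels per kb of union exon of the 10 genes, although per kb of coding sequence Tyk2 came below Il6ra. Il6ra encodes the chain that binds IL-6 and lies on chromosome 3 from 89864059 to 89913196 (GRCm38, minus strand, ENSMUSG00000027947.11). Its normalized counts were 1613 in replicate 1 and 1423 in replicate 2, with 1667 and 1875 reads. The implied wild-type mean was 1228, below both libraries. In the authors' deposited table its log2 fold change of 0.30 (SE 0.22, unadjusted p 0.169) was the highest of the 10, with a 95% Wald interval from -0.13 to 0.74 (the authors' DESeq2).

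Il6st, encoding gp130, lies on chromosome 13 from 112464070 to 112510086 (plus strand, ENSMUSG00000021756.12). It had normalized counts of 681 and 701, the lowest of the 10, and the implied wild-type mean of 823 lay above both. The authors' deposited table gives a log2 fold change of -0.25 (SE 0.28, unadjusted p 0.371, interval -0.79 to 0.29, the authors' DESeq2). The receptor chains thus had estimates of opposite sign, and both intervals include 0. Levels of different genes were compared as CPM (counts scaled to the library total) per kb of exon, on which Il6ra stood at 8.50 ± 0.628 and Il6st at 3.02 ± 0.106 (SD, n = 2). The binding chain exceeded the signalling chain 3.04-fold in replicate 1 and 2.61-fold in replicate 2. The size of this ratio depends on the length used. Union exons span 8642 bases for Il6ra and 11099 for Il6st, and coding sequences 1380 and 2795.

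The 3 kinases differed from each other far more than between the libraries. Jak2 lies on chromosome 19 from 29251828 to 29313080 (plus strand), the chromosome that also carries Malat1. It had normalized counts of 11342 and 11629, with an implied wild-type mean of 11707. Jak1, on chromosome 4 from 101152367 to 101265282 (minus strand), stood at 7696 and 7690, with an implied wild-type mean of 7501. Tyk2, on chromosome 9 from 21104068 to 21131243 (minus strand), stood at 2461 and 2469, with an implied wild-type mean of 2166, below both libraries. All 3 products attach to gp130, and in mouse cells JAK1 is the one needed most for gp130 signalling.

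In normalized counts, the replicates of Jak1 and Tyk2 lay closer together than for nearly all genes of such level: the absolute log2 ratio between libraries was smaller in 0.469% and 3.11% of 7043 genes. That closeness depends on the authors' size factors, since in CPM the log2 ratio of replicate 2 to replicate 1 was 0.028 for Jak1 and 0.034 for Tyk2, against -0.0012 and 0.0047. By the authors' deposited table, log2 fold changes were -0.014 for Jak2 (SE 0.15, interval -0.30 to 0.28), 0.037 for Jak1 (SE 0.10, interval -0.16 to 0.23) and 0.19 for Tyk2 (SE 0.17, interval -0.14 to 0.51), all by the authors' DESeq2. Per kb of exon, Jak2 exceeded Jak1 2.12-fold and 2.17-fold in the libraries, and Jak1 exceeded Tyk2 2.97-fold and 2.96-fold. These ratios use union exon lengths, 5030 bases for Jak2 and 7227 for Jak1. The longest transcripts of Jak2 and Jak1 are 5030 and 4906 bases, so the size of their ratio depends on the length used.

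Stat3, which encodes the transcription factor that IL-6 activates, had the highest normalized count of the 10 genes and ranked 95 among all 16385. It lies on chromosome 11 from 100885098 to 100939540 (minus strand, ENSMUSG00000004040.16). Its normalized counts were 20584 and 20059, from 21278 and 26428 reads, and both lay above the implied wild-type mean of 17495. The authors' deposited table puts the knockout level 1.16-fold higher, at an unadjusted p of 0.0139 (the authors' DESeq2 Wald test), with an interval of 1.03-fold to 1.31-fold. With its SE, a log2 fold change of 0.35 would have been needed to reach the smallest Wald statistic that passed in that table, and Stat3 reached 0.22. The Wald p of Stat3 was recomputed from the authors' DESeq2 standard errors after the fold changes were shifted. Re-centred on genes with a mean of 500 or more it was 0.0182, and re-centred on 78 ribosomal protein genes 0.0826. After subtraction of the trend with GC content it was 0.0505. Exons of Stat3 share 72 bases with Stat5a, on the other strand, which is 0.756% of its exon length. The counts do not separate the isoforms of Stat3.

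**Figure D2:**
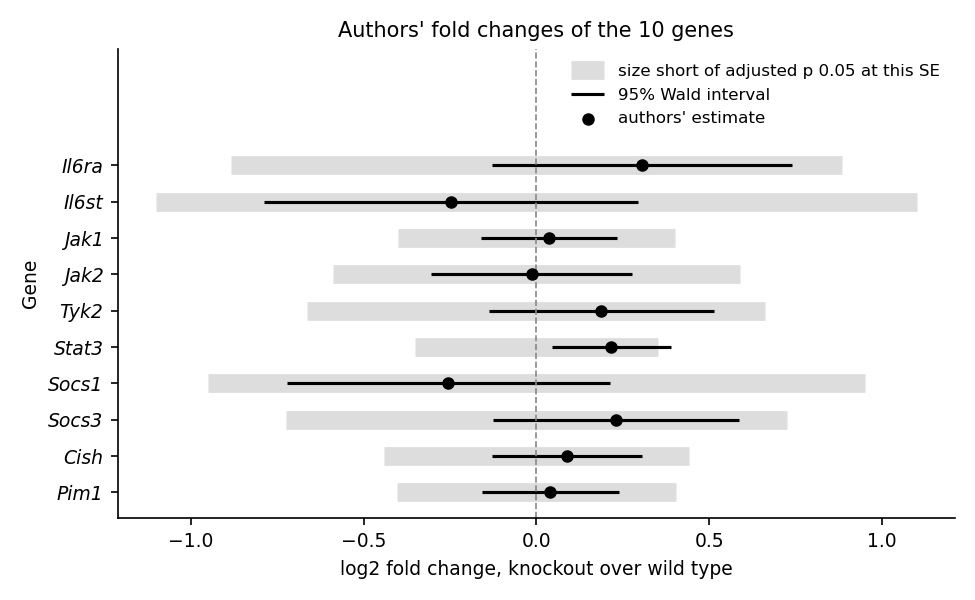
The authors' log2 fold change of each gene, knockout over wild type (points), with the 95% Wald interval computed from the authors' standard error (lines). Grey bars span the sizes that would not have reached an adjusted p of 0.05 at that standard error. Every point lies inside its grey bar, and the line of Stat3 alone stays clear of 0, from 0.044 to 0.39.

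Of the feedback genes, Socs1 and Socs3 varied most between the knockout libraries. Socs3 lies on chromosome 11 from 117966079 to 117970047 (minus strand) and encodes the inhibitor that docks on gp130. It had normalized counts of 3739 in replicate 1 and 2943 in replicate 2, with an implied wild-type mean of 2829. Socs1, on chromosome 16 from 10782240 to 10785536 (minus strand), encodes a direct inhibitor of JAK kinases. It had normalized counts of 1585 and 1236, and the implied wild-type mean of 1672 lay above both.

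Replicate 1 exceeded replicate 2 for both genes, 1.27-fold for Socs3 and 1.28-fold for Socs1. The log2 ratio of replicate 2 to replicate 1 was -0.35 for Socs3 (95% exact binomial interval -0.41 to -0.28) and -0.36 for Socs1 (-0.46 to -0.26). These intervals cover counting error only, so the difference was larger than counting error in both genes. The same held for Il6ra (-0.28 to -0.084), Pim1 (-0.11 to -0.018), Stat3 (-0.063 to -0.011) and Jak2 (0.0012 to 0.071), so it does not set Socs3 and Socs1 apart. Among 7043 genes with a mean of 500 or more, 97.4% had a smaller absolute ratio than Socs3 and 97.7% than Socs1. A log2 ratio under -0.3, a limit set after the values were seen, was found for 2 of the 10 genes and for 2.25% of the 7070 well-expressed genes. The ratio of Socs3 to Socs1 per kb of exon was nearly the same in both libraries, 2.37 and 2.39. Both transcripts are GC-rich, at 58.7% and 58.8%, and the 740 and 724 genes within 2 percentage points of each had a median log2 ratio of -0.056 and -0.057. The part of GC content was not tested.

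The fold changes of Socs3 and Socs1 had opposite signs. In the authors' deposited table Socs3 stood at 0.23 (SE 0.18, unadjusted p 0.204, interval -0.13 to 0.59) and Socs1 at -0.25 (SE 0.24, unadjusted p 0.286, interval -0.72 to 0.21), by the authors' DESeq2. Neither passed, and the size of each estimate turned on 1 library. Against the implied wild-type mean, the log2 ratio of Socs3 was 0.40 with replicate 1 alone and 0.057 with replicate 2 alone. That of Socs1 was -0.077 with replicate 1 alone and -0.44 with replicate 2 alone.

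Cish and Pim1 were abundant and nearly alike in both libraries. Cish encodes CIS, an SH2-domain protein best known as a target of STAT5 that restrains IL-2 and T cell receptor signalling, and lies on chromosome 9 from 107296026 to 107302784 (plus strand). Its normalized counts were 10442 and 10257, and the implied wild-type mean was 9764. Pim1, on chromosome 17 from 29490753 to 29496112 (plus strand), encodes a serine/threonine kinase that promotes survival and is induced by STAT proteins. Its normalized counts were 7291 and 6985, and the implied wild-type mean of 6943 lay just below both. By the authors' deposited table, log2 fold changes were 0.088 for Cish (SE 0.11, interval -0.13 to 0.30) and 0.040 for Pim1 (SE 0.10, interval -0.16 to 0.24), by the authors' DESeq2. The unadjusted p was 0.424 and 0.691. Against the implied wild-type mean, the log2 ratio of Pim1 was 0.071 with replicate 1 alone and 0.0087 with replicate 2 alone, and that of Jak2 was -0.046 and -0.0097. Exons of Pim1 share 488 bases, 14.5% of their length, with the antisense gene Gm26885. Those of Tyk2 share 554 bases (8.07%) with 1700084C06Rik, those of Cish share 479 (7.46%) with Gm17041 and 261 (4.07%) with Gm17040, and those of Il6ra share 242 (2.80%) with Gm42809, all on the other strand. The strand setting of the counting is not given in the sources used here, so reads there cannot be assigned to a gene by strand.

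**Figure D3:**
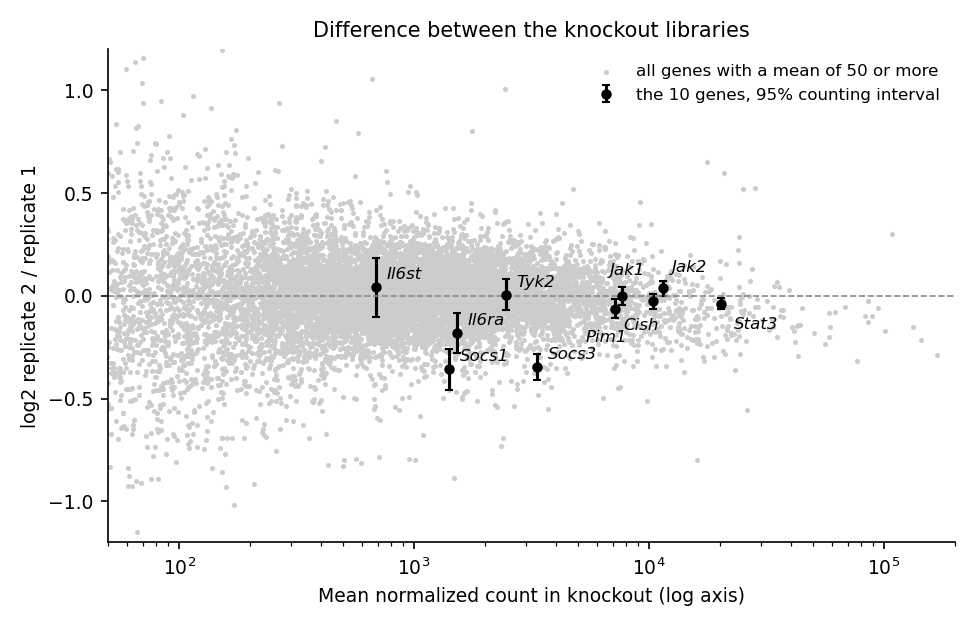
Log2 ratio of knockout replicate 2 to replicate 1 against the mean normalized count in the knockout (log axis), for all genes with a mean of 50 or more (grey) and the 10 genes (black, with 95% exact binomial intervals of counting error). Socs1 and Socs3 sit near -0.36 and -0.35, Il6ra at -0.18, and the other 7 between -0.062 and 0.042.

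Per exon length, the order of the knockout levels ran from Jak2, Stat3 and Pim1 down to the receptor chains. Jak2 stood at 111 ± 3.55, Stat3 at 103 ± 0.393 and Pim1 at 103 ± 1.63 CPM per kb of exon (SD, n = 2). The libraries of Stat3 and Pim1 overlapped, so these neighbours did not differ beyond their spread. Cish followed at 78.1 ± 0.144, Socs3 at 55.9 ± 8.63 and Jak1 at 51.6 ± 0.717 (SD, n = 2). Socs3 and Jak1 overlapped as well. Socs1 (23.5 ± 3.76), Tyk2 (17.4 ± 0.292), Il6ra and Il6st came below without overlap (SD, n = 2). Pim1 stood 34.1-fold above Il6st on this scale. The order, and the size of each ratio between genes, depends on the length used. Per kb of coding sequence Cish held position 1, Jak2 position 5, Il6ra position 8 and Tyk2 position 9. Without a length correction Il6ra held position 8 and Socs1 position 9, while Il6st was last by union exon length, longest transcript, coding length and without a length correction.

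**Figure D4:**
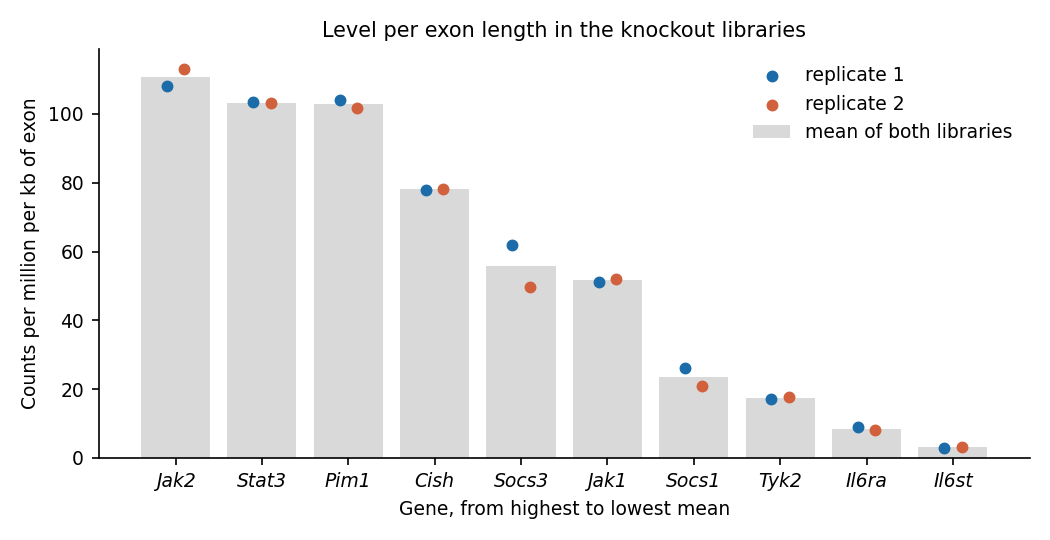
Level in the knockout libraries as CPM per kb of exon, ordered by the mean (bars), with each library as a point. The top 3 genes lie between 102 and 113, and the receptor chains lie between 2.94 and 8.95.

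The wider pathway was described with 5 lists, of which 0 genes passed an adjusted p of 0.05 in the authors' deposited table (their DESeq2 test). The share over the 14481 genes with an adjusted p was 0.159%. At an unadjusted p under 0.05, the background for each list was 0.391% higher and 1.72% lower over all 16385 genes. Over the 7070 well-expressed genes it was 0.905% higher and 1.3% lower. Among 15 gp130 cytokines and receptors, 0 were higher or lower at an unadjusted p under 0.05, the median fold change was 0.095 (log2), and 9 genes had under 50 counts in both libraries together. Lif, a gp130 ligand, was the most abundant of the list at 197 and 204 CPM per kb of exon, above every one of the 10 genes. Ebi3, a subunit of IL-27 and IL-35, stood at 46.3 and 45.5. Il27ra, the IL-27 receptor chain that pairs with gp130, stood at 18.5 and 17.9, and Il6ra reached 0.483 and 0.450 of its level. Il6 itself had 20 and 24 counts, Lifr 2 and 0, and Cntfr 0 in both, which allows up to 2.90 and 2.28 normalized counts. Log2 fold changes of the list ran from -5.14 to 2.12. By the authors' DESeq2, Il27ra stood at 0.18 (SE 0.21), Il6 at -1.21 (SE 1.22), Lifr at -4.02 (SE 2.77) and Cntfr at -5.14 (SE 4.45). Implied wild-type means were 47.1 for Il6, 46.6 for Lifr and 10.2 for Cntfr, so these estimates rest on few counts.

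The other JAK and STAT genes all had small positive estimates. All 7 lay between 0.067 and 0.21, with a median of 0.11, and 0 had an unadjusted p under 0.05 in either direction (the authors' DESeq2). Among the 7070 well-expressed genes, a level all 7 reach, 52.8% were positive. The 78 ribosomal protein genes had a median of 0.064, near the lowest of the 7, so the size of these estimates depends on the centring. In the authors' deposited table Jak3, the kinase of the common gamma chain, stood at 0.20 (SE 0.14), Stat2 at 0.21 (SE 0.16), Stat5b at 0.11 (SE 0.10) and Stat6 at 0.096 (SE 0.11). Per kb of exon, Stat3 exceeded Stat5a, the most abundant of the others, 1.34-fold and 1.24-fold in the libraries, and Stat5b 1.33-fold and 1.38-fold.

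Among 16 other negative regulators and sheddases, 1 was lower and 0 higher at an unadjusted p under 0.05, and the median log2 fold change was -0.0086. Over all 16385 genes 1.72% were lower and 0.391% higher, and over the 7070 well-expressed genes 1.3% and 0.905%. The lower one, Adam10, encodes a protease that can shed the IL-6 receptor from the cell surface. Its normalized counts were 2169 and 2413, both under the implied wild-type mean of 3406, and its log2 fold change in the authors' deposited table was -0.54 (SE 0.20, adjusted p 0.840, the authors' DESeq2). Ptpn1, a phosphatase that acts on JAK2 and TYK2, stood at 0.23 (SE 0.12), Socs4 at -0.17 (SE 0.27) and Pias2 at -0.12 (SE 0.20) in the authors' deposited table. Ptpn6, which encodes the phosphatase SHP-1, was the most abundant of the list per kb of exon, at 109 and 112, followed by Ptpn1 at 89.5 and 82.2.

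The 21 genes reported of the SHP2, ERK and PI3K arm of gp130 signalling had a median log2 fold change of 0.025, with 0 at an unadjusted p under 0.05 in either direction (the authors' DESeq2). Pik3cd, the PI3K catalytic subunit of leukocytes, came nearest at 0.23 (SE 0.12), and Sos1 stood at -0.35 (SE 0.26), Shc1 at -0.20 (SE 0.22) and Pik3r1, a PI3K regulatory subunit, at 0.15 (SE 0.19) in the authors' deposited table. Map2k1 and Grb2 were the most abundant, at means of 82.8 and 69.3 CPM per kb of exon.

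Of 23 other STAT3 target genes, 2 were higher and 0 lower at an unadjusted p under 0.05, with a median log2 fold change of -0.034. Over all 16385 genes 0.391% were higher and 1.72% lower, and over the 7070 well-expressed genes 0.905% and 1.3%. In the authors' deposited table Il4ra, the IL-4 receptor chain, stood at 0.23 (SE 0.084, adjusted p 0.940) and Timp1, a metalloprotease inhibitor, at 0.48 (SE 0.21, adjusted p 0.999988), by the authors' DESeq2. Normalized counts of Timp1 were 8476 and 6217, so replicate 1 exceeded replicate 2 as for Socs1 and Socs3, and the implied wild-type mean of 5208 lay below both. In this list 18 of 23 genes were lower in replicate 2, against 6821 of the 14481 genes with an adjusted p. A log2 ratio under -0.3 was found for 4 genes of the list (17.4%), against 11.1% of those 14481 and 2.25% of the 7070 well-expressed genes. Of the list 17 genes reach a mean of 500, and Il10 and Cebpb, among the 4, do not. By the authors' deposited table, Pim3, a relative of Pim1, stood at -0.38 (SE 0.21) and Ccnd1, cyclin D1, at -1.63 (SE 0.97). Neither had an unadjusted p under 0.05 (0.0736 and 0.0935, the authors' DESeq2). Junb was the most abundant of the list at a mean of 457 CPM per kb of exon, and Timp1 followed at 400.2.

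**Figure D5:**
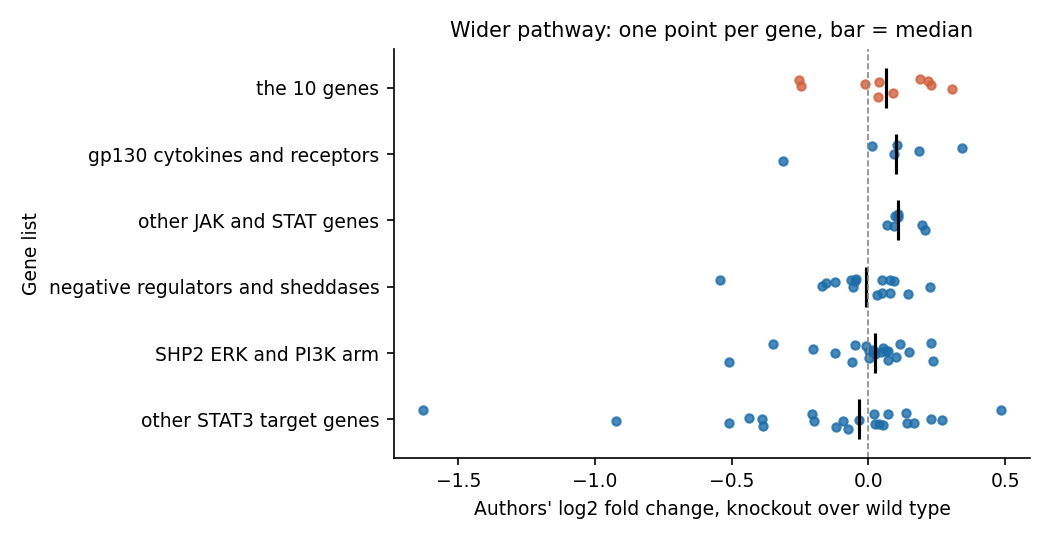
The authors' log2 fold change, knockout over wild type, for the 10 genes and for each gene with 50 or more counts in the 5 lists, with the median of the plotted genes as a bar. The 10 genes run from -0.25 to 0.30, and Ccnd1 is the lowest point at -1.63. All 7 other JAK and STAT genes lie above 0, as did 52.8% of genes with a mean of 500 or more.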

How the data were processed

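RNA of 2 Malat1 knockout Th17 cultures was measured by ribosome-depleted RNA-seq. Raw counts per gene are whole numbers deposited by the authors. The submitters' processing notes name STAR 2.6.1a, featureCounts, DESeq2 1.18.1 and mm10, while annotation, strand setting and model formula are not given there. The normalized counts, a signal, were made by the authors by dividing counts by 1 size factor per library, and their mean covers 4 libraries. Also deposited by the authors were log2 fold changes with standard errors, the Wald statistic (a score), and p-values, raw and adjusted. The 4 wild-type columns belong to another series and were left unused, so no test between genotypes was refitted. The implied wild-type mean follows from the deposited mean and both knockout values.

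Computed here (Python 3.11.15, scipy 1.17.1, statsmodels 0.14.6) were CPM per kb of exon (GENCODE M21, GRCm38, which matched 16371 of 16385 IDs), 95% Wald intervals from the deposited SE, exact binomial intervals, which cover counting error only, and the alternatives below, with a lowess fraction of 0.3 for the GC trend. The code for adjusted p-values and the GC trend was tested on simulated data. Members, lists and tests were chosen with earlier results of these data known. Beside the 10 genes, those named were, per list, the 4 with the smallest p, any that passed and the 2 highest per exon length. In the list of the SHP2, ERK and PI3K arm, 1 gene is not reported here.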

Additional observations from a re-analysis of the deposited data

How the results depend on the processing

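The count of 0 among the 10 genes, and of 0 in each of the 5 lists, was also 0 when p-values were adjusted over every gene, over genes with a mean of 50 or more or without near-absent genes (implied wild-type mean of 100 or more, knockout under 2% of it), after re-centring on genes with a mean of 500 or more or on ribosomal protein genes, after subtraction of the GC trend, and at an adjusted p under 0.1. Signs turned for estimates near 0: re-centred on ribosomal protein genes, the log2 fold change of Jak1 was -0.027 and that of Pim1 -0.024, and without the GC trend that of Pim1 was -0.014 and that of Jak2 0.017. The log2 ratio between the libraries was 0.028 for Jak1 and 0.0038 for Cish in CPM, and 0.00094 for Jak1 with size factors from genes with a mean of 500 or more. The cause was not tested. With a wider gap between the arms of the palindrome, 0 of the 11 promoter windows held a match, against 6.95% of all 32851 windows. Of the 10 fold changes, 10 kept their sign in the ratio to the implied wild-type mean without either replicate. No paired analysis was possible because there is 1 group of samples. The authors' SE was 0.28 for Il6st, with 704 and 924 reads, and 0.088 for Stat3, with 21278 and 26428. At these errors a 2.14-fold difference of Il6st and a 1.28-fold one of Stat3 would have been needed to pass.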
